A study of Mus musculus with 6 samples.

Results

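The 10 genes described here encode the proteins by which a cell shows peptides on MHC class I molecules, together with a pair of genes tied to the same response. They are the class I heavy chains H2-K1, H2-D1 and H2-T23, the light chain B2m, the peptide loading genes Tap1, Tap2, Tapbp and Erap1, the transcriptional activator Nlrc5 and the checkpoint ligand Cd274. They were chosen by symbol from a table of 53735 genes, and all 10 were measured well enough to be tested, among 14298 genes tested in all. RNA was sequenced from mouse leukemia stem cells, cells able to start the leukemia again in a new host, in 3 libraries from liver and 3 from bone marrow. All mice carried transplanted leukemia cells, received no treatment and were sampled on day 13, and the labels give the strain as C57 and every library as male. The labels do not name the driver of the leukemia, the sort that defined the stem cells or the animals behind the libraries, which they call technical replicates. All p-values here thus reflect how far these 6 libraries spread, and the labels do not say how much of that spread lies between animals.

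Class I molecules carry peptides from inside the cell to its surface, where CD8 T cells read them. The proteasome cuts the peptides, the TAP1 and TAP2 transporter moves them into the endoplasmic reticulum, ERAP1 trims them there, and tapasin, encoded by Tapbp, helps to load them onto a heavy chain paired with beta-2 microglobulin, the product of B2m. Interferons raise most of these genes together, NF-kB acts on enhancer A of the classical class I promoters, and NLRC5 acts through the conserved X and Y boxes of class I promoters. Cd274 encodes PD-L1, a ligand that restrains T cells and is also raised by interferon.

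The promoter stretches of the heavy chains and of B2m are shown because interferon, NF-kB and NLRC5 are known to act on these genes through sites close to the start. RefSeq promoters on GRCm38.p6 were found for 8 of the 10 members, and Tap2 and Nlrc5 were not matched. Each stretch holds the 200 bases before a RefSeq start site, read 5′ to 3′ on the strand of the gene, with matches to the searched motifs in capitals. They lie at chr17:34000348-34000547 on the minus strand for H2-K1 (the first of 2 listed starts), chr17:35262894-35263093 on the plus strand for H2-D1, chr17:36032702-36032901 on the minus strand for H2-T23 and chr2:122147487-122147686 on the plus strand for B2m. The gene positions given below are from GENCODE M21, which begins H2-D1 and H2-T23 upstream of these RefSeq starts. By those positions the whole H2-D1 stretch and part of the H2-T23 stretch lie inside the gene. Motif distances hold for the RefSeq starts only.
H2-K1: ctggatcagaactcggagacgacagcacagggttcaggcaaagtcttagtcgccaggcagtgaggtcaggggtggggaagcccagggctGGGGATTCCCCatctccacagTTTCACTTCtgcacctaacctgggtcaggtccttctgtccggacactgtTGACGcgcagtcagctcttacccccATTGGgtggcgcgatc
H2-D1: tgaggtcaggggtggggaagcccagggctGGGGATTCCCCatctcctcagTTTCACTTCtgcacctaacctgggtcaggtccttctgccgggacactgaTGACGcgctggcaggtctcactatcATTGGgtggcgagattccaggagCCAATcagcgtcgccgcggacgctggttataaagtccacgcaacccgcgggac
H2-T23: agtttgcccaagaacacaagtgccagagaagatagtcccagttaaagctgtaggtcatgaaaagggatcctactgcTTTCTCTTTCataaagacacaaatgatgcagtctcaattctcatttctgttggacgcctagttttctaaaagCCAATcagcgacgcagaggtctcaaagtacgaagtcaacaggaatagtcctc
B2m: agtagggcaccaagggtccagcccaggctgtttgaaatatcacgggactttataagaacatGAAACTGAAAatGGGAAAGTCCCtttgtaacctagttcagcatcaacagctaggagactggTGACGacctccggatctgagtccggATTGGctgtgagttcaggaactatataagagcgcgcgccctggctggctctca

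The motifs were searched on both strands in windows that ran from 250 bases before to 50 bases after each start. The enhancer A letters, the first run of capitals in the H2-K1 and H2-D1 stretches, stood before H2-K1 and H2-D1 and in 0.0304% of all 32851 promoters in the RefSeq table, and the related letters of the second run in the B2m stretch stood before B2m and in 0.07%. The interferon response core, GAAA and GAAA with any 2 bases between them, was matched in H2-T23, B2m and Erap1 (3.44% of promoters), and the shorter spelling GAANNGAAA, which can overlap it, in H2-K1 and H2-D1 (7.52%). The GAS letters TTCNNNGAA were searched as well and matched no member promoter, against 8.3% of all promoters. TGACG alone, the core of the X2 part of the X box, was common, at 20.8% of promoters. So was the Y-box core CCAAT, which reads ATTGG on the other strand, at 37.4%. The rest of the X box was not searched. The cores TGACG and ATTGG with any 20 bases between them, which contain matches to each core alone, were found before H2-K1, H2-D1 and B2m and in 0.0944% of promoters. From the enhancer A match to the end of the Y-box core, H2-K1 and H2-D1 were identical at 89 of 100 bases.

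**Figure D1:**
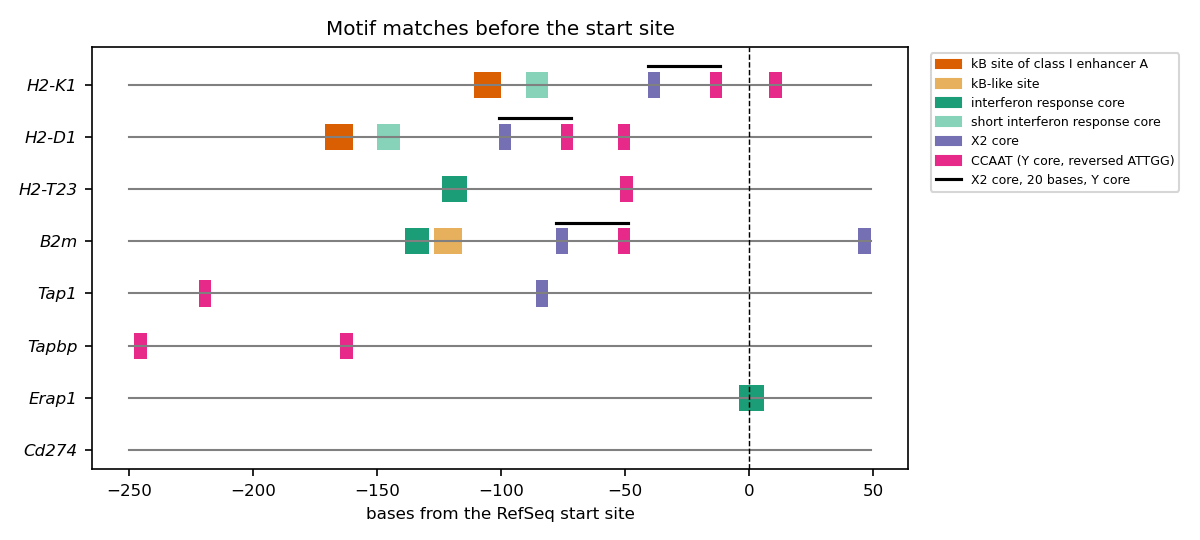
Motif matches in 8 member promoters, with distance from the RefSeq start site in bases on the x axis and a row for each gene. Black lines mark the X2 core and Y-box core with 20 bases between them, seen for H2-K1, H2-D1 and B2m, and the Cd274 window holds no match to the searched letters.

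The libraries held 9.73 to 13.8 M reads from liver and 15.4 to 18.5 M from bone marrow, and values are read counts that the authors scaled by a size factor per library. The X-linked RNA Xist, which silences an X chromosome in female cells, set the replicate numbers apart against the labelled sex, with 6229 normalized counts in liver replicate 1 and 4859.99 in bone marrow replicate 1, against 1.42 and 4.28 in replicate 2 and 2425 and 2486 in replicate 3. Transcripts of the Y-chromosome genes Eif2s3y, Uty, Kdm5d and Ddx3y showed the reverse, with summed normalized counts of 0, 2675 and 1634 in the liver libraries and 145, 2987 and 1553 in those of bone marrow. Replicates 1 and 2 therefore differ in the sex-linked transcripts of their cells, and replicate 3 lies between them in both tissues. Whether replicate 3 is independent of the other 2 was not tested, so n = 3 may overstate the number of separate samples. Markers of leukemia stem and progenitor cells (Ptprc, Kit, Cd34, Ly6a, Meis1, Hoxa9, Hoxa10, Myb and Flt3) were present in every library, with summed levels of 14550.1 to 15226 in liver and 16238 to 16839.8 in bone marrow that did not overlap. These markers differed in direction, and none passed by limma. Kit (log2 fold change 0.38), Hoxa9 (0.22) and Flt3 (0.17) were higher in liver. The others were lower, from -0.86 for Ly6a to -0.03 for Myb. Of 9 hepatocyte markers in the table, Alb, Ttr, Serpina1a and Fgb were at 0 in all 6 libraries, and Apoa1 made up most of a summed level of 2303 to 3018 in liver and 2667 to 5669 in bone marrow. The Kupffer cell markers Clec4f, Vsig4 and Cd5l, the endothelial marker Cdh5, the lymphocyte markers Cd3e, Cd4 and Ncr1 and the B cell marker Ms4a1 were also at 0. The macrophage list, nearly all Adgre1, summed to 177 to 451 in liver and 338 to 503 in bone marrow, the endothelial list, mostly Pecam1, to 481 to 1399 in liver and 438 to 1146 in bone marrow, and the B cell list to 9.88 to 42.6 in liver and 31.2 to 47.6 in bone marrow, each with overlap. The 10 T and natural killer cell markers, nearly all of it Nkg7, summed to 11687 to 12073 in liver and 10613 to 11454 in bone marrow, without overlap. The 8 neutrophil markers, mostly Mpo and with Ly6g at 0, summed to 331 to 3136 in liver and 107 to 131 in bone marrow, without overlap. Mpo was called higher in liver by limma (log2 fold change 3.99, adjusted p = 0.047). The 7 dendritic cell markers, mostly Cd74 and H2-Ab1 and with Siglech at 0, summed to 409 to 1554 in liver and 927 to 3807 in bone marrow, with overlap. The part of any of these markers' cells in the class I values was not tested, and in bulk RNA fewer cells of a type and less RNA per cell cannot be told apart.

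Setting liver against bone marrow asks whether these transcripts differ in level between the sites from which leukemia stem cells were taken. All 10 genes had a lower mean in liver, at 66.2% to 91.4% of the bone marrow mean, where 51.6% of all genes tested had a negative log2 fold change, and 2 of them, H2-K1 and Nlrc5, fell past the threshold. The test was limma on log2(normalized count + 1), where an adjusted p under 0.05 counts as a difference, and among all genes tested it called 1.01%, with 0.594% lower and 0.42% higher in liver. On the recovered reads edgeR also called 2 members (0.944% of all genes), while DESeq2 called 8 (4.35% of all genes), all but Erap1 and Cd274. At an unadjusted p under 0.05, 9 of the 10 members were lower in liver, against 8.04% of all genes (15.7% in either direction). Every liver library lay below every bone marrow library in 9 of 10 members, against 10.9% of all genes (22.3% without overlap in either direction), and the exception was Erap1. The median log2 fold change was -0.33 over the members and -0.01 over all genes tested. The 10 genes together took 0.975%, 1.09% and 1.04% of the reads in liver replicates 1, 2 and 3, and 1.25%, 1.29% and 1.28% in bone marrow replicates 1, 2 and 3. The exact 95% binomial intervals of these shares ran from 0.970% to 1.10% over the liver libraries and from 1.24% to 1.30% over the bone marrow libraries, and they cover counting error only.

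**Figure D2:**
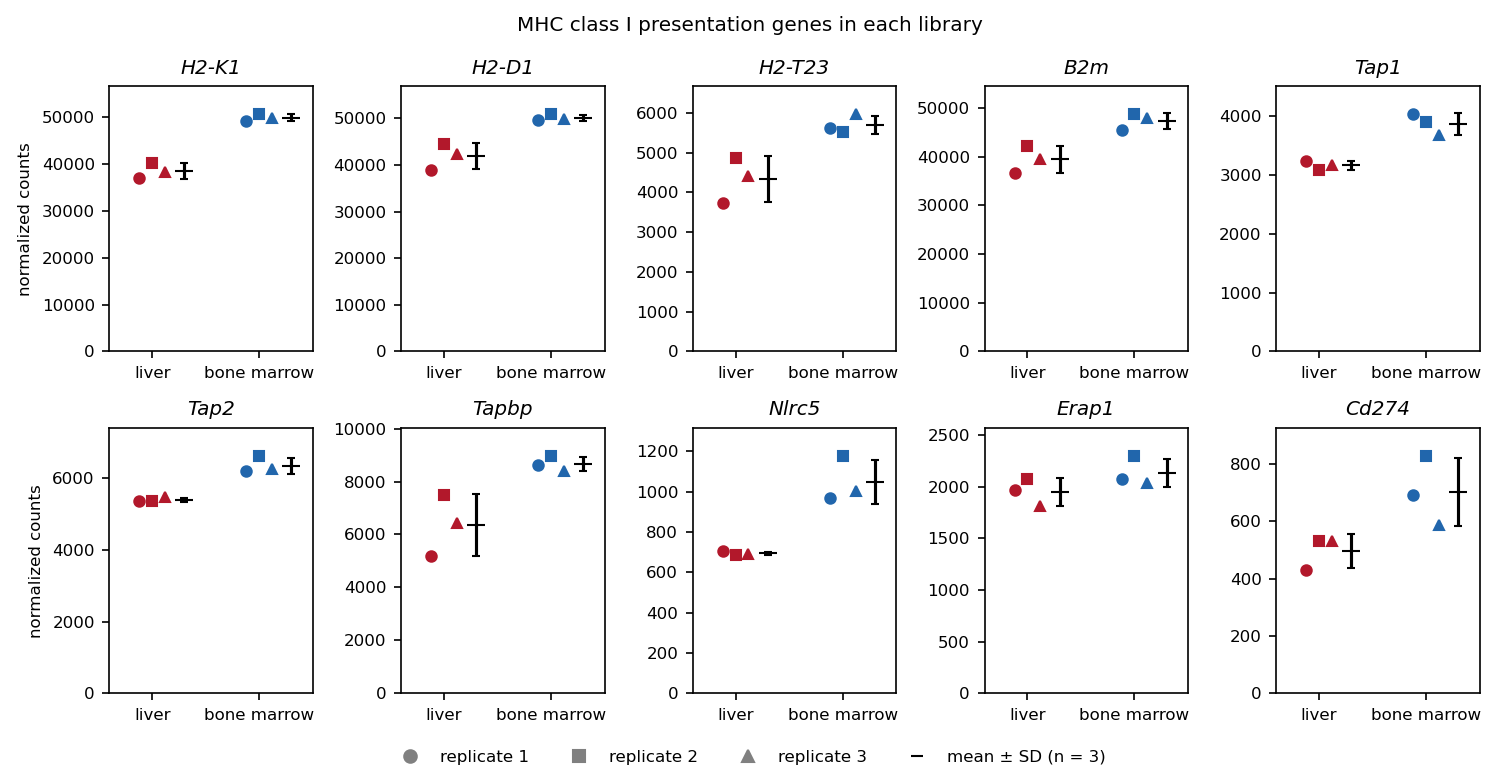
Normalized counts of the 10 genes in each library, on axes from 0, with liver left of bone marrow, a symbol shape for each replicate number, and the mean with its SD (n = 3) beside the points. In 9 panels all liver points lie below all bone marrow points, and in the Erap1 panel they overlap.

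H2-K1 encodes one of the classical heavy chains that present peptides to CD8 T cells, and lies on chromosome 17 at chr17:33996017-34000347 (GRCm38, minus strand). It had 36929, 40265 and 38361 normalized counts in liver replicates 1, 2 and 3, against 49066, 50556 and 49842 in bone marrow. The liver libraries were close to each other and all lay well below the bone marrow libraries. The mean was 38518 ± 1673 in liver and 49821 ± 745 in bone marrow (SD, n = 3 each), and the log2 fold change was -0.37 ± 0.04 (SE, limma adjusted p = 0.022). The call was kept without liver replicate 1 (adjusted p = 0.0082) or 2 (0.017), and was lost without liver replicate 3 (0.183) and without bone marrow replicate 1 (0.105), 2 (0.110) or 3 (0.177). Its log2 fold change stayed between -0.40 and -0.34 in these 6 fits. In the fits where the call was lost, 0.042% to 0.119% of all genes were called.

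H2-D1, the other classical heavy chain gene of this set, lies at chr17:35262730-35267499 (plus strand). It had 39019, 44442 and 42452 normalized counts in liver, against 49698, 50840.2 and 49891 in bone marrow. The groups did not overlap, and liver replicate 1 was the lowest library. The mean was 41971 ± 2744 in liver and 50143 ± 611 in bone marrow, a log2 fold change of -0.26 ± 0.05 that did not pass (limma adjusted p = 0.079, DESeq2 adjusted p = 0.0085). Without liver replicate 1 it passed (adjusted p = 0.033), with a log2 fold change of -0.21, in a fit that called 2.98% of all genes. The ratio of H2-K1 to H2-D1 within a library, which needs no scaling between libraries, was 0.946, 0.906 and 0.904 in liver and 0.987, 0.994 and 0.999 in bone marrow. The ratio was lower in each liver library than in any bone marrow library, and the difference between the changes of the 2 chains was not tested.

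H2-T23 encodes Qa-1, a nonclassical heavy chain that presents peptides from the leaders of other class I chains to NKG2 receptors of natural killer cells, and lies at chr17:36029773-36032855 (minus strand). It had 3723, 4868 and 4413 normalized counts in liver, against 5621, 5507 and 5959 in bone marrow. The groups did not overlap, but the liver libraries were spread widely, from replicate 1 at the low end to replicate 2. The log2 fold change of -0.40 ± 0.10 did not pass (limma adjusted p = 0.110, DESeq2 adjusted p = 0.0098), with a 95% interval of -0.63 to -0.18 that is not adjusted for the number of genes.

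B2m encodes the light chain that pairs with class I heavy chains, and lies at chr2:122147686-122153083 (plus strand), away from the MHC. It had 36622, 42275 and 39490.1 normalized counts in liver, against 45518, 48711 and 47967 in bone marrow. As for H2-D1, liver replicate 1 was lowest and the groups did not overlap. Its log2 fold change was -0.27 ± 0.06 without passing (limma adjusted p = 0.097, DESeq2 adjusted p = 0.015). Relative to the sum of H2-K1 and H2-D1, B2m stood at 0.482, 0.499 and 0.489 in liver and at 0.461, 0.4804 and 0.481 in bone marrow. The ratio was higher in each liver library than in any bone marrow library. The nearest libraries of the 2 tissues differed by less than the spread within each tissue, and the difference was not tested.

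Tap1 and Tap2 encode the subunits of the peptide transporter and lie near each other at chr17:34187553-34197225 and chr17:34203527-34216321, both on the plus strand. Tap1 had 3231, 3083 and 3172 normalized counts in liver, against 4027, 3905 and 3669 in bone marrow. Tap2 had 5353, 5359 and 5464 in liver, against 6208, 6609.7 and 6247 in bone marrow. Both were tight within liver, with an SD of 74.4 for Tap1 and 62.8 for Tap2, and neither overlapped between tissues. The liver SD of Tap2 is below its counting error of 80.6 normalized counts. The log2 fold changes were -0.29 ± 0.06 for Tap1 (limma adjusted p = 0.068) and -0.24 ± 0.05 for Tap2 (0.071), so neither passed, while the DESeq2 adjusted p was 0.0031 for Tap1 and 0.0064 for Tap2. Without liver replicate 1 Tap1 passed (adjusted p = 0.043), in a fit that called 2.98% of all genes. The ratio of Tap1 to Tap2 was 0.604, 0.575 and 0.5804 in liver and 0.649, 0.591 and 0.587 in bone marrow, and the tissues overlapped.

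Tapbp, the gene of tapasin, which bridges the transporter and the empty class I molecule, lies at chr17:33915899-33929292 (plus strand). It had 5171, 7494 and 6431 normalized counts in liver, against 8622, 8946 and 8398 in bone marrow. The liver libraries differed from each other more than in any other member relative to their mean, and still all lay below bone marrow. The mean was 6365 ± 1163 in liver and 8655 ± 276 in bone marrow, and the log2 fold change of -0.46 ± 0.12 did not pass (limma adjusted p = 0.140, DESeq2 adjusted p = 0.016).

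Erap1 encodes the aminopeptidase that trims peptides to the length class I molecules hold, and lies at chr13:74639568-74693201 (plus strand). It had 1963, 2074 and 1809 normalized counts in liver, against 2069, 2291 and 2036 in bone marrow. Liver replicate 2 stood above bone marrow replicates 1 and 3, so the tissues overlapped. The log2 fold change was -0.13 ± 0.08, with a 95% interval from -0.31 to 0.05 and an adjusted p of 0.474 by limma and 0.626 by DESeq2, and a difference between tissues was not detectable.

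Nlrc5 encodes the activator that drives transcription of class I heavy chains, B2m and Tap1, and lies on chromosome 8 at chr8:94434356-94527272 (plus strand). It had 703, 685 and 692 normalized counts in liver, against 968, 1174 and 1001 in bone marrow. The groups were far apart relative to their spread, and liver was at 66.2% of the bone marrow mean, the lowest share among the 10 genes. The mean was 694 ± 9.24 in liver and 1048 ± 111 in bone marrow, a log2 fold change of -0.59 ± 0.09 (SE) with a limma adjusted p of 0.041. The liver SD is smaller than the counting error of 28.9 normalized counts that 482 to 712 reads per library give, so the true spread in liver is not measured by it. The call was kept without liver replicate 1 (adjusted p = 0.033) and was lost without liver replicate 2 (0.072) or 3 (0.208) and without bone marrow replicate 1 (0.128), 2 (0.120) or 3 (0.219), with log2 fold changes of -0.64 to -0.50. In the fits where the call was lost, 0.042% to 0.602% of all genes were called.

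Cd274, the gene of PD-L1, lies at chr19:29367455-29388095 (plus strand). It had 429.8, 530.2 and 531 normalized counts in liver, against 692, 826 and 587 in bone marrow. The groups did not overlap, but bone marrow replicate 3 came near the liver libraries. The mean was 497 ± 58.2 in liver and 702 ± 119.8 in bone marrow, and the log2 fold change of -0.49 ± 0.15 did not pass (limma adjusted p = 0.180, DESeq2 adjusted p = 0.062).

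**Figure D3:**
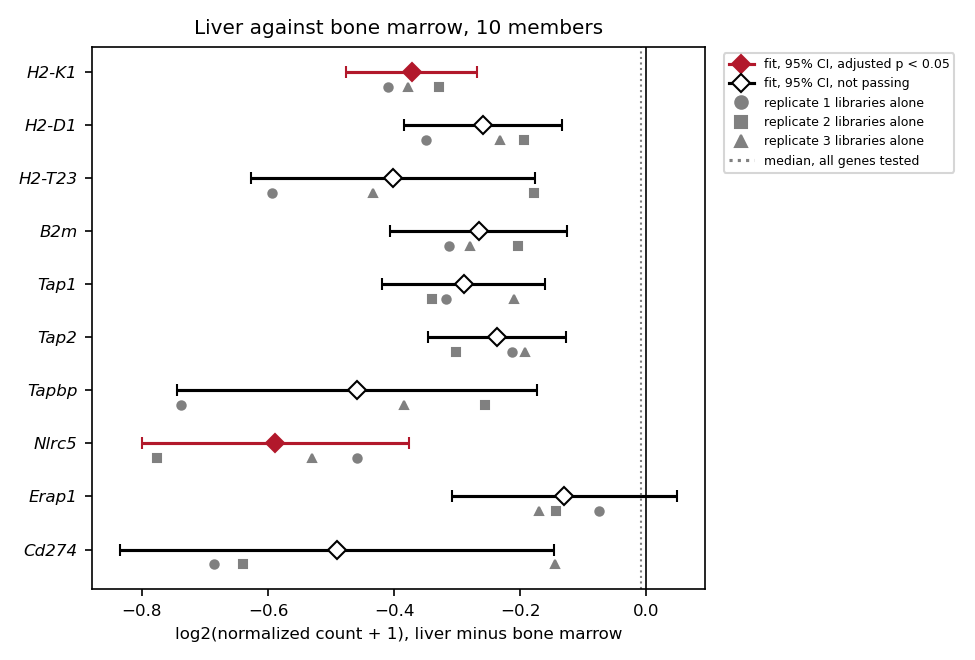
Difference of liver minus bone marrow on the log2(normalized count + 1) scale for each gene, with the fitted value and its 95% interval as a diamond and bar, and gray symbols for the difference between the libraries of 1 replicate number. All fitted values and all gray symbols lie below 0, the interval of Erap1 crosses 0, and H2-K1 and Nlrc5 are the filled diamonds that passed.

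The libraries that share a replicate number also share features such as the level of Xist, so the difference was taken within each number. All 10 members were lower in liver in each of the 3 comparisons. For the 9 members whose tissues did not overlap this was fixed in advance, so only Erap1 could have differed. For H2-K1 the differences on the log2 scale were -0.41, -0.33 and -0.38 in replicates 1, 2 and 3, a narrow range. For Nlrc5 they were -0.46, -0.78 and -0.53. For Tapbp they were -0.74, -0.26 and -0.38, and for Cd274 -0.69, -0.64 and -0.15, so these genes differed in size between the numbers. Without both replicate 3 libraries, which hold intermediate Xist levels, no member was called by limma, with log2 fold changes of -0.37 for H2-K1 (adjusted p = 0.873) and -0.62 for Nlrc5 (0.873). Of all genes, 2 were called there.

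Tissue took a median of 82.1% of the sum of squares of a member over the 6 libraries and replicate number 11.2%, against 21.5% and 37.6% over all genes tested. These shares are a description, with no test. The tissue share was highest for H2-K1 (95.95%), Tap2 (93.8%) and Nlrc5 (92.05%) and lowest for Erap1 (40.8%), where replicate number took 55.4%. Across the 6 libraries, log2 levels of H2-D1 and B2m had a Pearson correlation of 0.99, as did those of Tap2 and Nlrc5, while that of H2-T23 and Erap1 was 0.56. These correlations rest on 6 libraries that share the contrast of tissues and carry no p. The 5 non-members whose log2 levels were most like the mean z score of the members, among 11432 genes with a mean of at least 50, were the autophagy receptor gene Sqstm1, the transcriptional inhibitor Id2, the milk casein gene Csn2, the kinase gene Dapk1 and the GTPase gene Rab38, with correlations of 0.997 to 0.992. All had a negative fold change, from -4.36 for Csn2 to -0.40 for Sqstm1, and 3.02% of the genes searched reached a correlation of 0.9.

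Per kb of annotated exon, B2m stood highest, with a mean of 45886 normalized counts per kb in liver and 55114 in bone marrow. H2-D1 followed with 16274 in liver and 19443 in bone marrow, and H2-K1 with 13110.0 and 16958, and in both tissues the libraries of these genes did not overlap. Tapbp, H2-T23 and Tap2 formed the next group, at 1755, 1500.4 and 1426 in liver and 2386, 1972 and 1681 in bone marrow. The libraries of these 3 overlapped in liver but not in bone marrow. Tap1 stood at 577 in liver and 706 in bone marrow, Erap1 at 268 and 293, Cd274 at 137 and 194, and Nlrc5 at 81.7 and 123, with no overlap between neighbours in either tissue. Lengths are those of the merged exons in GENCODE M21, and the isoform in use is not known.

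Some reads of these genes can be claimed by others. Of the 50-base words in H2-K1 transcripts of GENCODE M21, 9.63% also occur in transcripts of other genes, and for H2-D1 and H2-T23 the shares were 12.8% and 14.5%. Among the members the share was highest for Tapbp, at 23.2%. H2-K1 and H2-D1 share 141 such words, or 4.08% of those of H2-K1 and 5.44% of those of H2-D1. The library chemistry does not mark the strand, so reads cannot be told apart where Tap1 overlaps Psmb9, Tap2 overlaps Gm15821 and Gm20496, Tapbp overlaps Gm19412, Nlrc5 overlaps 9330175E14Rik, Erap1 overlaps Cast and Cd274 overlaps AC119228.1. Tapbp also shares exon bases with Zbtb22 on the same strand. Values of the heavy chains and of these genes are uncertain to that extent, while B2m shares no such word with another gene.

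The 6 lists of related genes, chosen by textbook roles, showed no gene past the threshold of limma. Their counts stand against 15.7% of all genes with an unadjusted p under 0.05, 22.3% whose tissues did not overlap and 4.35% called by DESeq2, and their medians against -0.01. Of 24 other class I chains listed, 14 were tested, of which 0 passed, 2 (14.3%) had an unadjusted p under 0.05, near the share of all genes, edgeR called 0 and DESeq2 1, and the median log2 fold change was -0.12. That gene, Mr1, which presents vitamin B metabolites to MAIT cells, had 78.1, 90.97 and 73.5 normalized counts in liver, against 154, 155 and 123 in bone marrow (log2 fold change -0.82, limma adjusted p = 0.096, DESeq2 adjusted p = 0.026). H2-K2, annotated as a pseudogene, had 212, 134 and 159 in liver, against 108, 128 and 106 in bone marrow (0.53, limma adjusted p = 0.278), the opposite direction to the members. H2-Q7, a chain of the Q region, had 7067, 6513 and 6679 in liver, against 7103, 7753 and 6956 in bone marrow (-0.11, limma adjusted p = 0.454). H2-Q10, a soluble chain of the liver in the mouse, had 203, 36.96 and 97.5 in liver, against 48.5, 29.97 and 52.05 in bone marrow (1.08, limma adjusted p = 0.437).

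Of 15 chaperone and peptide editing genes, 0 passed, 1 (6.67%) had an unadjusted p under 0.05, and edgeR and DESeq2 called 0, with a median of 0.02. Hspa5, an abundant chaperone of the endoplasmic reticulum, averaged 20496 in liver and 18885 in bone marrow (0.12, limma adjusted p = 0.215). Tapbpl, a relative of tapasin, averaged 547 in liver and 666 in bone marrow (-0.30, limma adjusted p = 0.352), and the aminopeptidase gene Blmh 2042 and 1849 (0.14, 0.385). Prkcsh, of glycoprotein trimming, averaged 2478 and 2285 (0.12, 0.469). The loading partners of tapasin, Calr and Pdia3, had log2 fold changes of 0.03 and 0.02.

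Of 7 genes of the immunoproteasome and its activator, 0 passed, 3 (42.9%) had an unadjusted p under 0.05, all lower in liver, and edgeR and DESeq2 called 0, with a median of -0.11. The 3 were the activator subunits Psme2, with 3527, 4314 and 4169.97 in liver against 4508, 5076 and 4979.6 in bone marrow (-0.28, limma adjusted p = 0.193), and Psme1 (-0.21, 0.199), and the catalytic subunit Psmb10 (-0.20, 0.199). Psme3, of a nuclear activator, averaged 4344 in liver and 4109 in bone marrow (0.08, 0.476). The catalytic subunits Psmb8 and Psmb9 had log2 fold changes of -0.11 and -0.07 (limma adjusted p = 0.639 and 0.694). Of the 3 constitutive catalytic subunits 0 passed, 0 had an unadjusted p under 0.05 and edgeR and DESeq2 called 0, with log2 fold changes of 0.22 for Psmb7, 0.09 for Psmb6 and 0.04 for Psmb5 (limma adjusted p = 0.324, 0.664 and 0.893).

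Of 26 interferon receptors and regulators of class I transcription, 0 passed, 3 (11.5%) had an unadjusted p under 0.05, less than the share of all genes, and edgeR and DESeq2 called 0, with a median of -0.12. Nfyc, a subunit of the factor that binds CCAAT, had 543, 588 and 596 in liver, against 449, 456 and 451 in bone marrow (0.35, limma adjusted p = 0.110). Socs1, a feedback inhibitor of interferon signalling, had 489, 1059 and 901 in liver, against 1148, 1501 and 1369.6 in bone marrow (-0.78, limma adjusted p = 0.227). The interferon-induced activator Irf1 had 887, 1073 and 1122 in liver, against 1194, 1483 and 1159.95 in bone marrow (-0.31, 0.294). Over the 26 genes, tissues did not overlap in 3 that were lower in liver, Socs1 and Irf1 among them. They also did not overlap in 2 that were higher, Nfyc and Rfxap, where 22.3% of all genes showed no overlap. Rfxap, of the factor that binds the X box, averaged 479 in liver and 414 in bone marrow (0.21, limma adjusted p = 0.325).

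Of 19 listed ligands of lymphocyte checkpoint and natural killer receptors, 11 were tested, of which 0 passed, 4 (36.4%) had an unadjusted p under 0.05, edgeR called 0 and DESeq2 1, with a median of -0.12. Vsir, which encodes the checkpoint protein VISTA, had 192, 349.7 and 352 normalized counts in liver, against 86.2, 145 and 110.05 in bone marrow (log2 fold change 1.36 ± 0.29, limma adjusted p = 0.087, DESeq2 adjusted p = 3.9e-04), the opposite direction to Cd274. Pdcd1lg2, the gene of PD-L2, had 159, 289.96 and 199 in liver, against 292, 385 and 334 in bone marrow (-0.68, limma adjusted p = 0.216). Cd48, a ligand of the receptor 2B4, averaged 5095 in liver and 4543 in bone marrow (0.16, limma adjusted p = 0.310), and the adhesion molecule gene Icam1 278 and 353 (-0.33, 0.316). Cd47, which restrains uptake by macrophages, had a log2 fold change of -0.02.

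**Figure D4:**
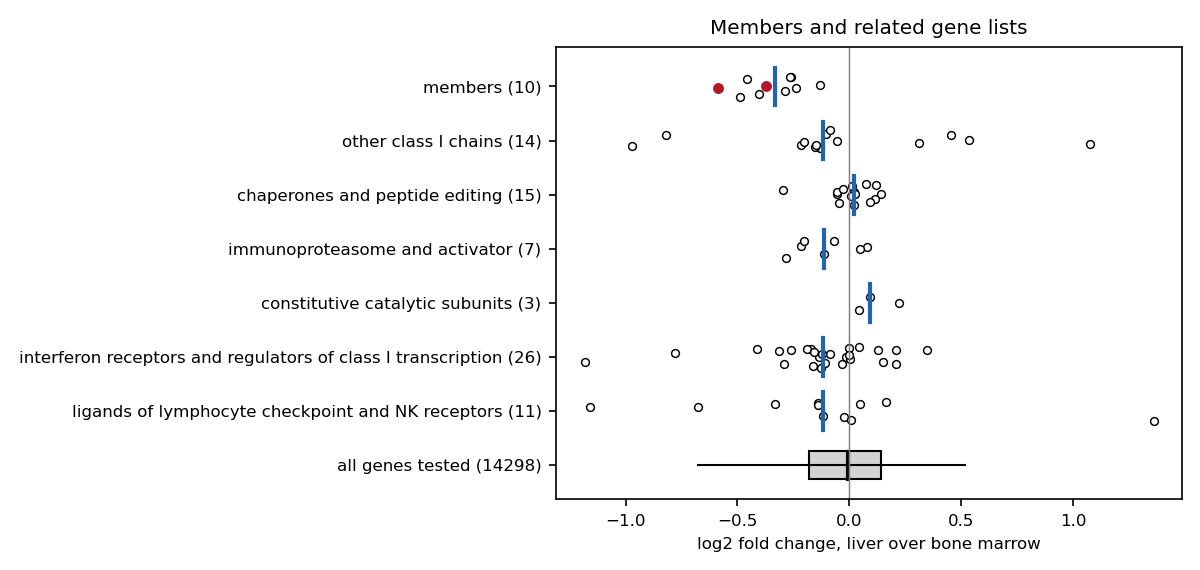
Log2 fold change of liver over bone marrow for each gene of the members and the 6 related lists, with the number tested in brackets, filled points for genes that passed, blue bars at the medians and a box (quartiles, with whiskers from the 5th to the 95th percentile) for all genes tested. The members lie left of 0 with a median of -0.33, and the lists have medians from -0.12 to 0.09.

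**Figure D5:**
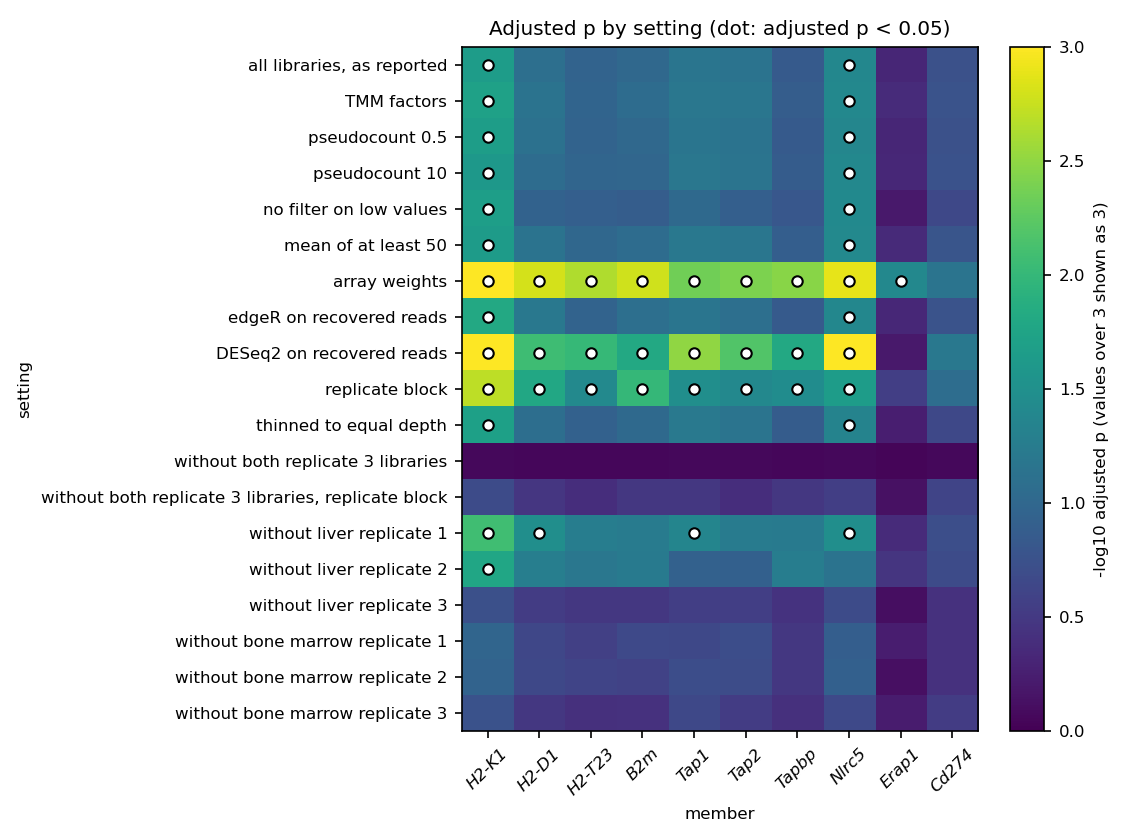
Adjusted p of each member (columns) in the fit as reported and in 18 alternatives (rows), on a -log10 color scale, with dots where it was under 0.05. H2-K1 and Nlrc5 carry dots in every row above the fits that leave out libraries, and array weights, DESeq2 and the replicate block add dots for 6 or more further members.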

How the data were processed

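Values in the deposited table are a signal: each read count was scaled by the authors with DESeq2's size factor of its library, as the table's name and the submitters' processing notes give it. STAR 2.6.0c is named there along with Trimmomatic 0.36 and bcl2fastq 2.19.0, and DESeq2 1.16.1 with R 3.4.1. Build, annotation and read counter: not given in the sources used here. Low-input cDNA libraries were made by tagmentation, per the labels' protocols. All values were whole multiples of the smallest in their library within 0.01 (100%), so whole reads were recovered, a read counting for 0.988 to 1.42 in liver and 0.744 to 0.898 in bone marrow.

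Genes whose mean reached 10 normalized counts were fitted as log2(value + 1) with limma 3.58.1 (R 4.3.3), tissue as the only term and a variance trend, two-sided, with Benjamini-Hochberg adjustment over all genes tested. The 1 added to each value understates changes of low genes. No library pair of a tissue agreed within sampling noise (chi-square per degree of freedom 6.50 to 25.9). The alternatives were DESeq2 1.42.0 or edgeR 4.0.16 run on recovered reads, TMM factors, other pseudocounts and filters, array weights, thinning to equal depth, the replicate number as a term and leaving out libraries. The members, lists and tests were chosen with earlier results of these data known. All members are named, with up to 4 genes of smallest adjusted p per list, any called gene and the 5 most alike non-members. Calr, Pdia3, Psmb8, Psmb9 and Cd47 were named after their values were seen, as were the motifs. Gene positions and exon lengths are from GENCODE M21 (GRCm38) and promoters from RefSeq (GRCm38.p6), matched by symbol, and may differ from what the authors counted on. Figures were drawn with matplotlib 3.10.9.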

Additional observations from a re-analysis of the deposited data

How the results depend on the processing

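All 10 members kept a negative log2 fold change in each of the 18 alternatives, 180 values in all. These values are not separate support. For the 9 members whose tissues did not overlap, leaving out libraries could not change the sign. The other filters and the replicate block left the limma estimates as they were. The number called moved widely. It stayed at 2 (H2-K1 and Nlrc5) with TMM factors, other pseudocounts, other filters, edgeR and thinning. With array weights, whose estimation stopped before convergence, it was 9 (of 3217 genes in all), where H2-D1 (-0.24), H2-T23 (-0.40), B2m (-0.27), Tap1 (-0.26), Tap2 (-0.21), Tapbp (-0.41) and Erap1 (-0.19) passed as well, and 4, 5, 2, 6 and 3 genes were called among other class I chains, chaperones, immunoproteasome, interferon regulators and checkpoint ligands. With DESeq2 it was 8 (of 622), adding H2-D1 (-0.26), H2-T23 (-0.39), B2m (-0.26), Tap1 (-0.29), Tap2 (-0.24) and Tapbp (-0.44), with 1 other class I chain and 1 checkpoint ligand. With the replicate block it was also 8 (of 525), adding H2-D1 (-0.26), H2-T23 (-0.40), B2m (-0.27), Tap1 (-0.29), Tap2 (-0.24) and Tapbp (-0.46), with 1, 1 and 2 genes of the immunoproteasome, interferon regulator and checkpoint ligand lists. The labels do not say that a replicate number marks a shared source. Deviations from the tissue means correlated at 0.44, 0.40 and 0.06 for numbers 1, 2 and 3. The libraries of numbers 1 and 2 were each other's best match. Bone marrow replicate 3 correlated best with liver replicate 3, but liver replicate 3 correlated best with bone marrow replicate 2. The pairing is thus a hint from the data for numbers 1 and 2 and not shown for 3. Without both replicate 3 libraries 0 members and 2 genes were called, and with the replicate block added 0 and 15, H2-K1 having -0.37 and Nlrc5 -0.62 in both (adjusted p = 0.208 and 0.278 with the block). The cause of these differences was not tested.

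Leaving out 1 library gave 0 to 4 members called lower, 0 called higher, 6 to 427 genes in all and 0 to 1 checkpoint ligands. The log2 fold changes then ran from -0.40 to -0.34 for H2-K1, -0.30 to -0.21 for H2-D1, -0.49 to -0.30 for H2-T23, -0.32 to -0.21 for B2m, -0.33 to -0.26 for Tap1, -0.25 to -0.21 for Tap2, -0.59 to -0.32 for Tapbp, -0.64 to -0.50 for Nlrc5, -0.18 to -0.08 for Erap1 and -0.61 to -0.37 for Cd274. No member passed without liver replicate 3 or any 1 bone marrow library, and in those fits 0.042% to 0.119% of all genes were called. Without liver replicate 1 the share of all genes called was 2.98%, and without liver replicate 2 it was 0.602%. Depth does not limit the abundant chains, at 28328 or more reads per library, as much as Nlrc5 and Cd274, the members with the fewest reads.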

Other observations

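The X2 core and Y-box core with 20 bases between them stood before 27 genes of the RefSeq promoter table, of which 20 were tested. Besides H2-K1, B2m and H2-D1 these included the nonclassical class I gene H2-M3. It averaged 419.9 normalized counts in liver and 485 in bone marrow (log2 fold change -0.20, limma adjusted p = 0.462). Trim26, also among them, averaged 396 and 501 (-0.34, 0.146), Znrd1 689 and 659 (0.06, 0.747) and Znrd1as 61.0 and 63.2 (-0.06, 0.928). The tissues overlapped for H2-M3, Znrd1 and Znrd1as but not for Trim26. The median log2 fold change over the 20 was -0.06, against -0.01 over all genes tested. Of the 20, 13 were negative, among them the members H2-K1, B2m and H2-D1, where 51.6% of all genes tested were negative. The member H2-K1 was the 1 called by limma, which called 1.01% of all genes tested. Tecpr1 had the lowest log2 fold change, -0.80, and Nrarp the highest, 1.00. The genes were found by the letters after the members' values were seen, and no test was made of them.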
